A study of Mus musculus with 16 samples.

Results

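The cytosolic ribosomal protein genes were examined in macrophages and monocytes sorted from MN/MCA1 sarcomas, a transplantable mouse tumour, 21 days after the tumour cells had been injected. Members were the genes whose symbol in the authors' deposited tables is Rpl or Rps with a number and at most 1 of the letters a, l or x, together with Rplp0, Rplp1, Rplp2 and Rpsa. The rule took 81 of 30819 genes, of which 80 passed the filter on low values (a linear value of at least 10 in at least 4 of the 16 libraries). Rpl24 did not pass. The hosts were C57BL/6J mice labelled as C3 knockouts (KO) or wild type (WT), with 4 mice per genotype, and the sample titles give both cell types for every mouse. The groups were KO macrophages, WT macrophages, KO monocytes and WT monocytes, with 4 libraries each. Macrophages were gated as Ly6C- and F4/80+, monocytes as F4/80- and Ly6C+, and both gates took CD45+ CD11b+ cells without Ly6G or CD11c. The labels number the mice but give no allele, litter, age or sex. Between genotypes within a cell type the p-values measure the spread between mice. Between cell types, and for the difference of KO effects, the main fits do not pair the libraries of a mouse. Counts with the mouse as a block are given in the last section.

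Each ribosome carries a copy of nearly every ribosomal protein, and cells make these proteins in matched amounts. Their mRNAs are abundant and short, and most begin with a run of pyrimidines, the 5' terminal oligopyrimidine tract, through which mTORC1 and Larp1 control their translation. Mammalian genomes hold many processed pseudogenes of these mRNAs, copies made by reverse transcription. A few members also have paralogs with restricted expression, such as Rpl3l in striated muscle and Rpl39l in male germ cells.

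Reads recovered from the deposited values numbered 18689428 to 29049277 per library. C3, on chr17:57203970-57228136 (GRCm38), had 1076, 1368, 1390.3 and 1102 normalised reads in KO macrophages, against 3262, 4668, 4830.1 and 3272 in WT macrophages. It had 4624 to 5204 in KO monocytes, against 14608 to 16131 in WT monocytes. C3 was lower in KO without overlap in both cell types (log2 difference -1.13 ± 0.11 in macrophages and -1.22 ± 0.05 in monocytes, ± SE), while C3 reads were present in every KO library. Log2 differences are on the deposited log2 scale unless another is named, and that scale draws differences towards 0. For C3 the authors' deposited tables, turned to KO over WT, give -1.70 in macrophages and -1.62 in monocytes. The 8 macrophage markers summed to 633418 to 761684 normalised reads in KO macrophages and 792867 to 934533 in WT macrophages, against 189399 to 269159 in monocytes, and the 8 monocyte markers to 10094 to 19021 in macrophages and 114714 to 166973 in monocytes. Markers of fibroblasts or sarcoma cells (6 genes) summed to 170 to 923 in KO macrophages and 819 to 2222 in WT macrophages. In monocytes they summed to 786 to 5764 in KO and 3362 to 6574 in WT. Lum was at 0 in every KO macrophage library and at 0 to 0.95 in WT macrophages, so near 0 in both. The 7 neutrophil markers summed to 1547 to 2106 in macrophages and 6983 to 12179 in monocytes. Ly6g was at 0 in every KO macrophage library and at 0 to 1.1 in WT macrophages, so near 0 in both. The 4 red blood cell markers summed to 145 to 242 in KO macrophages and 428 to 1272 in WT macrophages, and to 309 to 1274 in KO monocytes and 1430.2 to 3569 in WT monocytes. In macrophages the sums of 3 further lists also lay apart by genotype: B cell markers at 135 to 199.6 in KO and 57.5 to 98.8 in WT, T cell markers at 33.7 to 52.9 in KO and 87.5 to 103 in WT, and dendritic cell markers at 4229 to 5402 in KO and 5453 to 6769 in WT. The part of these other cells in the results was not tested. In bulk samples fewer cells of a type and less RNA per cell cannot be told apart.

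The members together took under 1% of the reads in every library, with a higher mean share in macrophages (0.802% in KO and 0.771% in WT) than in monocytes (0.670% in KO and 0.664% in WT). The share was 0.804%, 0.777%, 0.781% and 0.847% in KO macrophages, and 0.771%, 0.748%, 0.774% and 0.792% in WT macrophages. It was 0.823%, 0.587%, 0.638% and 0.631% in KO monocytes, and 0.641%, 0.584%, 0.732% and 0.699% in WT monocytes. KO and WT overlapped in both cell types. In WT mice every macrophage library lay above every monocyte library, while KO monocyte replicate 6 lay above 3 of the 4 KO macrophage libraries.

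**Figure D1:**
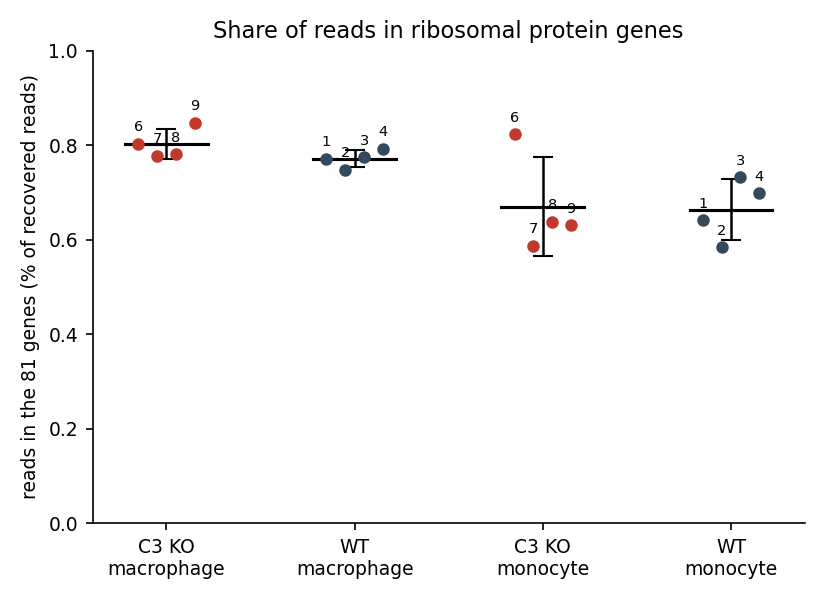
Share of recovered reads (in %) in the 81 ribosomal protein genes, by group, with 1 point per library and its mouse number, and the mean and SD of each group (n = 4). KO macrophages ran from 0.777% to 0.847%, and KO monocyte replicate 6, at 0.823%, stood above the other KO monocytes at 0.587% to 0.638%.

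Within a group the members moved together from library to library. Over the 16 libraries the median pairwise correlation of the members' deviations from their group means was 0.81, against 0.00053 over all 13134 genes tested, a description of genes that share libraries and size factors. In KO monocyte replicate 6 the members' median deviation was 0.20 on the log2 scale and 79 of 80 members were above the group mean, while in KO monocyte replicate 7 it was -0.15 and 0 of 80 were above. In WT monocyte replicate 3, 78 of 80 were above (median 0.10), and in WT monocyte replicate 2, 2 of 80 were (median -0.10). The median deviation of all genes tested lay between -0.012 and 0.020 in these 16 libraries. The members' median SD between mice on the log2 scale was 0.056 in KO macrophages, 0.037 in WT macrophages, 0.16 in KO monocytes and 0.10 in WT monocytes. For all genes it was 0.11, 0.098, 0.13 and 0.12 in the same order, so that the members' median SD was above that of all genes in KO monocytes. Rpl6 and Rpl4, both of the large subunit, had the lowest pooled SD among the members (0.064 and 0.065). Rpl39l, at 50.3 normalised reads on average, had the highest (0.50).

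**Figure D2:**
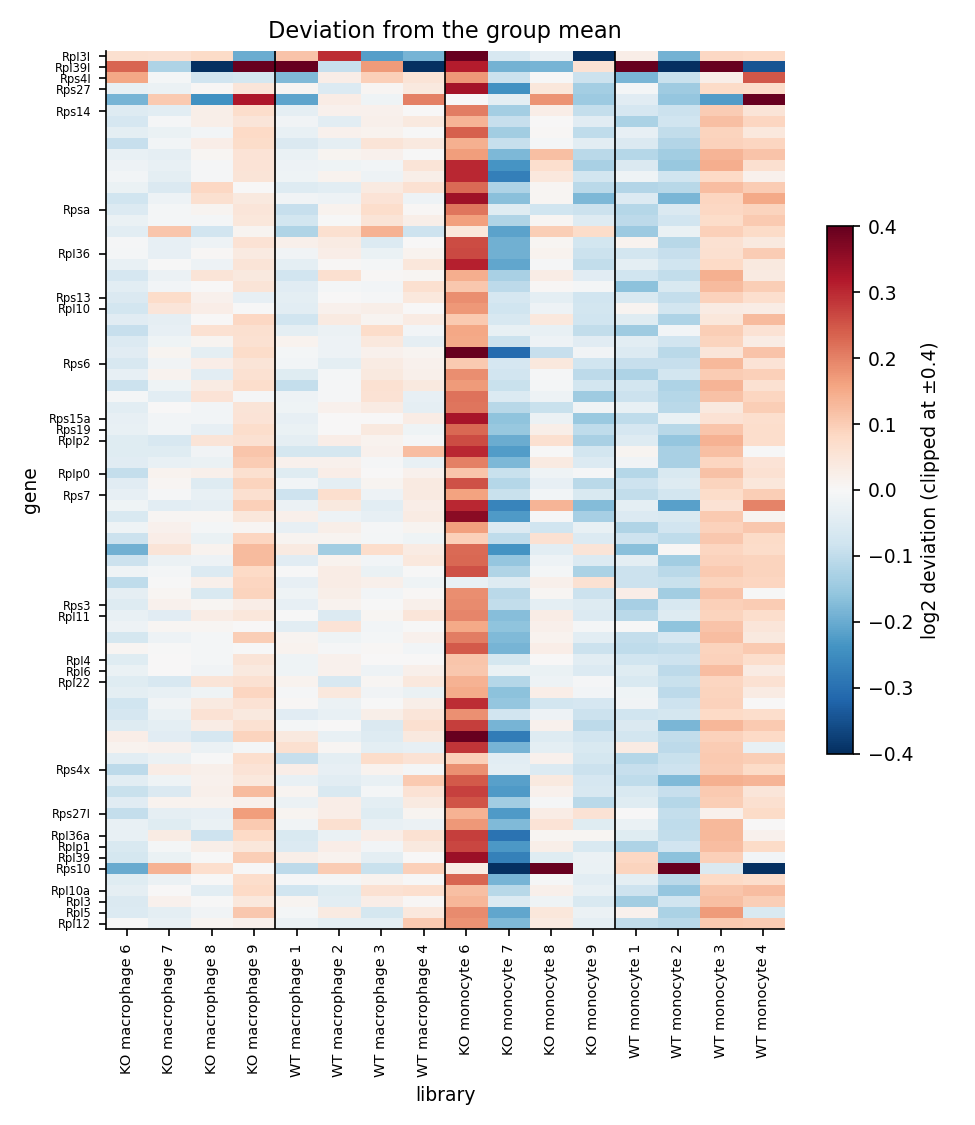
Log2 deviation of each of 80 ribosomal protein genes from its group mean in each of the 16 libraries, clipped at 0.4 either way, red above and blue below, with names for a selection of genes. In KO monocyte replicate 6, 79 of 80 genes were above the group mean, and in KO monocyte replicate 7, 0 of 80 were.

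Nearly all members stayed close to their WT level in C3 KO mice. In macrophages 2 of 80 members passed the test (adjusted p under 0.05 over all genes, limma), both lower in KO, or 2.5%, where 5.4% of all 13134 genes passed (2.41% higher and 2.98% lower). In monocytes 2 of 80 passed, both lower in KO, where 3.24% of all genes passed (1.37% higher and 1.87% lower). The genes were Rps13 and Rps15a in both cell types. For the other 78 members the median difference, KO minus WT, was 0.06 on the log2 scale in macrophages and 0.0042 in monocytes, against 0.00093 and -0.0099 for all genes tested. Over all 80 members these medians were 0.054 and 0.0024, and 0.032 and 0.026 with TMM scaling; the monocyte median was -0.07 without KO monocyte replicate 6 and 0.05 without KO monocyte replicate 7, so it had no stable direction. In macrophages 67 of these 78 lay above 0, and 75 had a 95% interval within 0.5 of 0 on the log2 scale. In monocytes 41 of 78 lay above 0, and 74 had such an interval. The deposited scale draws differences towards 0, so a bound of 0.5 on it allows larger differences in the reads. The KO effect differed between the cell types for 0 of 80 members, where 0.617% of all genes passed (limma; 2 of 80 had an unadjusted p under 0.05, and voom on the recovered reads also called 0, where 0.365% of all genes passed).

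**Figure D3:**
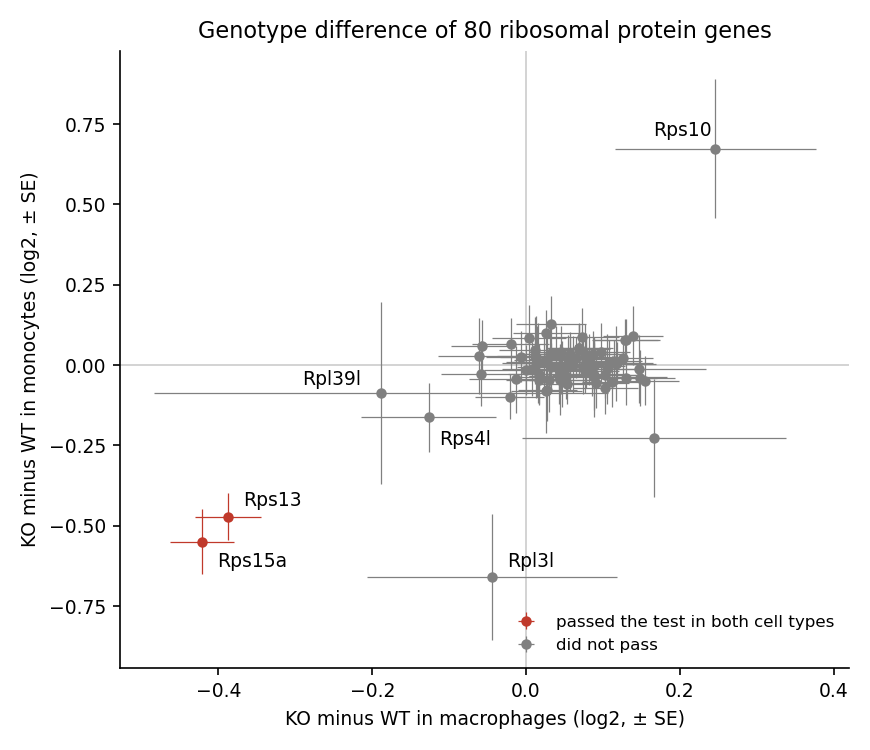
KO minus WT difference (log2 ± SE) of 80 ribosomal protein genes in macrophages (x axis) and monocytes (y axis), n = 4 libraries per group. Rps13 and Rps15a lie at -0.39 and -0.42 in macrophages and at -0.47 and -0.55 in monocytes, and none of the other 78 genes was past the limma threshold in macrophages or monocytes.

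Rps13, a small subunit protein, lies on chr7:116331505-116334195, minus strand. It had 1178, 1343, 1269 and 1207 normalised reads in KO macrophages, against 1751, 1819, 1808 and 1892 in WT macrophages. In monocytes it had 1432, 1117, 1148 and 1104 in KO, against 1779.7, 1721, 2061 and 2009 in WT. The groups did not overlap in either cell type. The log2 difference was -0.39 ± 0.04 (SE) in macrophages, with an adjusted p of 0.00021 in limma. It was -0.47 ± 0.07 in monocytes, with an adjusted p of 0.00345.

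Rps15a, also of the small subunit, lies 1.77 Mb away on chr7:118104372-118116188, minus strand. It had 749, 764, 763 and 815 normalised reads in KO macrophages, against 1127, 1163, 1163 and 1193 in WT macrophages. KO monocytes had 885, 542, 623 and 549, against 992, 1067, 1156 and 1165 in WT monocytes, again without overlap. The log2 difference was -0.42 ± 0.04 in macrophages, with an adjusted p of 8.85e-05, and -0.55 ± 0.10 in monocytes, with one of 0.0116. The deposited scale draws differences towards 0: in the authors' deposited tables, turned to KO over WT, the log2 fold change was -0.54 in macrophages and -0.66 in monocytes for Rps13, and -0.59 and -0.75 for Rps15a.

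Both genes have processed pseudogenes elsewhere in the genome, and rows of these copies differed by genotype as well. Rps13-ps1, on chr8:87047689-87048226, differs from the Rps13 coding sequence at 2 of 453 bases. It had 320.1, 351.5, 374.8 and 425.5 normalised reads in KO macrophages, against 0, 2.2, 0.9 and 4.2 in WT macrophages. In monocytes it had 356.0, 279.6, 312.6 and 282.7 in KO, against 1.2, 0, 0.9 and 0 in WT. Every KO library lay above every WT library. The row passed the filter on low values through its KO libraries alone, so its difference is given as values with no test.

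Rps13-ps2, on chr7:88530446-88530898, holds all 404 of the 50-base windows of the Rps13 coding sequence and had 0, 3.3, 6.4 and 4.4 normalised reads in KO macrophages, against 21.9, 28.1, 27.7 and 20.3 in WT macrophages. Rps15a-ps8, on chr4:53791070-53791456, differs from Rps15a at 30 of 387 compared bases. It had 97.5, 92.6, 74.1 and 91.3 normalised reads in KO macrophages, against 1.9, 1.1, 0.9 and 0 in WT macrophages. In monocytes Rps15a-ps8 had 112.7, 68.7, 79.1 and 62.6 in KO, against 0, 0, 1.9 and 0 in WT. Its groups did not overlap in either cell type. Rps13-ps2 passed the filter through its WT libraries alone and Rps15a-ps8 through its KO libraries alone, so no test is given for them either.

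The stretches below, from the GENCODE M21 transcripts on GRCm38, are shown because they hold the bases that separate a member from the copy whose row was higher in KO. They are read along the coding strand, positions are counted from 1 at the A of the member's start codon, and capitals mark the bases that differ.
Rps13, across an exon junction, chr7:116331568-116332398, minus strand: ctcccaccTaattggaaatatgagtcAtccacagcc
Rps13-ps1, chr8:87048122-87048157, plus strand: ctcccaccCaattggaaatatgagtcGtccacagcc
Rps15a, across an exon junction, chr7:118109189-118109955, minus strand: ctgctcccTTcacgTcaGtttggCttca
Rps15a-ps8, chr4:53791153-53791180, minus strand: ctgctcccAGcacgGcaAtttggTttca
Rps7, chr12:28635600-28635635, minus strand: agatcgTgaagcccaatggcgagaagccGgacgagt
Gm6472, chrX:152910066-152910101, minus strand: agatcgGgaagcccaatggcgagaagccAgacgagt
The Rps13 pair differs by T411C and A429G, the Rps7 pair in this stretch by T26G and G48A, and the Rps15a pair in this stretch by T285A, T286G, T291G, G294A and C300T, each written with the member's base before the position and the copy's base after it.

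Of the annotated pseudogene rows in the matrix, 757 hold at least 1 of the 50-base windows of a member (75 members), and 60 of these rows passed the filter. In macrophages 4 of the 60 were higher and 1 was lower in KO, which is 8.33%, where 5.4% of all genes passed. The same counts were found in monocytes, where 3.24% of all genes passed. A row with reads in 1 genotype only passes the filter through that genotype, so these counts are a description, and nothing is read from them against those shares. Beside the Rps13 and Rps15a copies these were Gm6472, a copy of Rps7 on chromosome X, and Gm8130, a copy of Rps3 on chromosome 16. Gm6472 had 138.7 to 175.5 normalised reads in KO macrophages, against 13.3 to 15.7 in WT macrophages (log2 difference 2.13 ± 0.11, adjusted p = 2.71e-07), and 109.7 to 161.6 in KO monocytes, against 12.8 to 17.3 in WT monocytes. Gm8130 differed by 0.99 ± 0.16 in macrophages and by 0.68 ± 0.16 in monocytes, with adjusted p-values of 0.00345 and 0.0378. Rps7 and Rps3, both of the small subunit, did not pass themselves. Rps7 averaged 1691 ± 75.5 normalised reads in KO macrophages and 1727 ± 109 in WT macrophages (SD, n = 4 each).

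When the reads of each member's pseudogene rows were added to the member, the genotype difference of both genes was smaller. For Rps13 (5 rows) the sum averaged 1628 ± 87.2 normalised reads in KO macrophages and 1854 ± 61.8 in WT macrophages, so KO stood at 87.8% of WT, against 68.7% for the gene row alone. In monocytes the sum was 1525 ± 188 in KO and 1928 ± 168 in WT, 79.1% of WT against 63.4% for the gene row. For Rps15a (7 rows) KO stood at 75.0% of WT in macrophages and 67.9% in monocytes, against 66.5% and 59.4% for the gene row. How the authors' counting treated reads with several locations is not given in the sources used here.

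A limma voom fit on these sums, an alternative added after the values were seen, gave Rps13 a difference of -0.21 ± 0.07 in macrophages, with an adjusted p of 0.098. In monocytes it was -0.32 ± 0.10 with an adjusted p of 0.126, so that Rps13 passed in neither. Rps15a passed in macrophages (-0.44 ± 0.06, adjusted p = 0.00138) but not in monocytes (-0.56 ± 0.15, adjusted p = 0.0729). In that fit 1 of 80 members was called in macrophages, where 4.93% of all genes were. In monocytes 0 of 80 were called by limma voom, where 2.86% of all genes were; 3 of 80 had an unadjusted p under 0.05, and the fit on the deposited log2 values called 2. Limma voom on the recovered reads without the added ones called both genes in both cell types (Rps13 at -0.56 in macrophages and -0.64 in monocytes, adjusted p = 0.000356 and 0.00589, and Rps15a at -0.61 and -0.76, adjusted p = 0.000101 and 0.0162), where 4.99% of all genes passed in macrophages and 2.96% in monocytes.

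**Figure D4:**
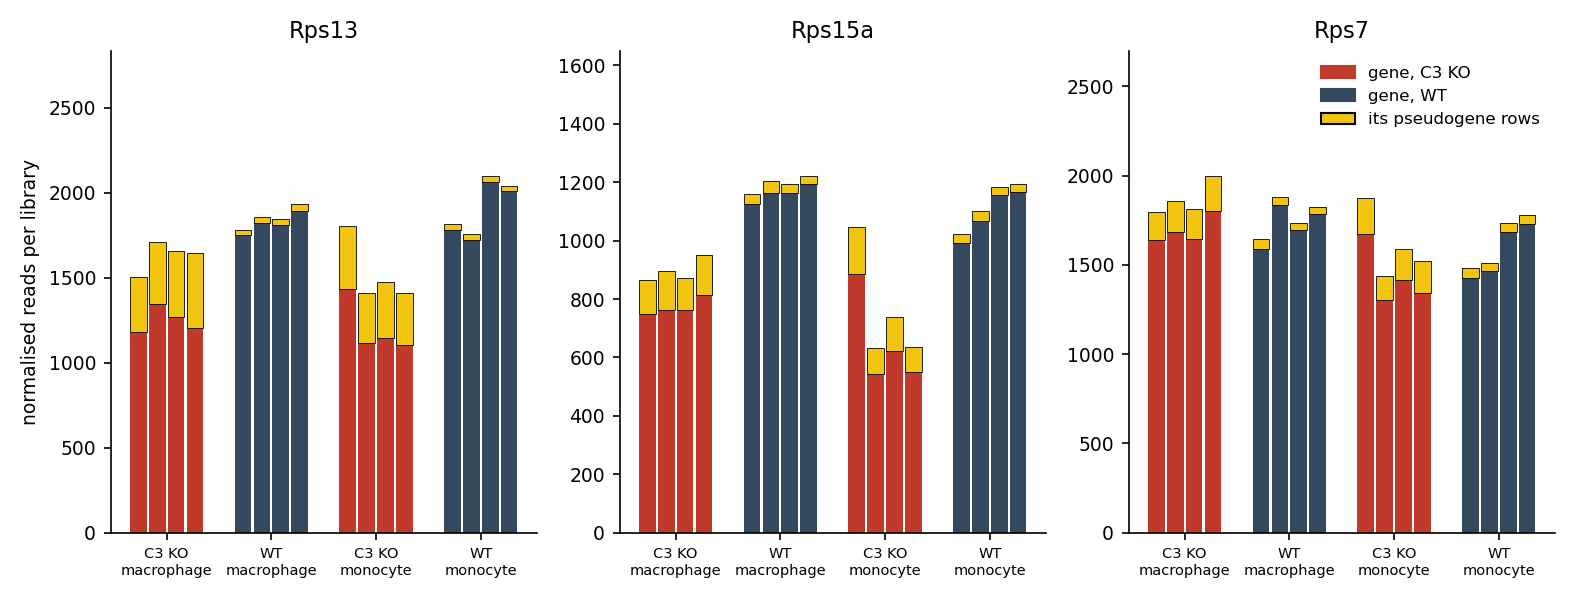
Normalised reads per library of Rps13, Rps15a and Rps7, with the reads of their pseudogene rows stacked on the gene row in yellow, by group, with 1 bar per library. The pseudogene section is taller in every KO library than in any WT library for all 3 genes.

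Rps13 and Rps15a also sat among neighbours that differed by genotype. Within 1 Mb of either gene, 6 of 19 other tested genes passed in macrophages (1 higher and 5 lower in KO) and 9 of 19 in monocytes (2 higher and 7 lower), against 5.38% and 3.18% of genes elsewhere. Plekha7, an adherens junction protein gene on chr7:116123485-116308376, had 111 to 170 normalised reads in KO macrophages, against 0 to 6.8 in WT macrophages. It had 47.0 to 73.9 in KO monocytes, against 0 to 10.3 in WT monocytes. Its WT reads lie near 0, so its difference is given as values with no test. The counts within 1 Mb include it as higher in both cell types. Nucb2, a calcium-binding protein gene on chr7:116504369-116540584, differed by -0.25 ± 0.05 in macrophages and -1.30 ± 0.08 in monocytes. Arl6ip1, on chr7:118118891-118129662, differed by -0.22 ± 0.05 in macrophages and -0.37 ± 0.05 in monocytes. These genes were named after their values were seen. The other 12 members on chromosome 7 lay between 0.017 and 0.10 in macrophages and between -0.070 and 0.054 in monocytes, and none passed in limma. Whether the genotypes differ in the sequence of this region was not tested.

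Rpl36, the member closest to C3 (chr17:56613416-56614243, 0.59 Mb away), had 1239.8, 1208, 1254 and 1291 normalised reads in KO macrophages, against 1075, 1119, 1064 and 1106 in WT macrophages. The groups did not overlap, and the difference of 0.14 ± 0.04 had an adjusted p of 0.0651, the smallest among the members that did not pass in macrophages. In monocytes it was 0.09 ± 0.09 (adjusted p = 0.677).

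Of the stalk proteins, which bind elongation factors, Rplp0 differed by 0.13 ± 0.04 in macrophages (adjusted p = 0.115) and 0.08 ± 0.07 in monocytes. Without KO macrophage replicate 6, Rplp0 passed in macrophages (0.16, adjusted p = 0.0352). Rplp1 and Rplp2 differed by 0.03 ± 0.04 and 0.02 ± 0.04 in macrophages. Rpsa, a small subunit protein also known as a laminin receptor, had 2709, 2835, 2887 and 2993 normalised reads in KO macrophages, against 2247, 2494, 2629 and 2471 in WT macrophages. Its macrophage groups did not overlap, yet the difference of 0.16 ± 0.04 had an adjusted p of 0.0657, and in monocytes it was -0.05 ± 0.08.

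Members with known roles outside the ribosome did not pass between genotypes. Rps6, the substrate of S6 kinase, differed by 0.13 ± 0.04 in macrophages (adjusted p = 0.0951) and 0.02 ± 0.07 in monocytes. Rpl5 and Rpl11, which bind Mdm2 when ribosome assembly fails, differed by 0.07 ± 0.05 and 0.08 ± 0.04 in macrophages and by 0.09 ± 0.09 and 0.02 ± 0.08 in monocytes. Rps19, mutated in human Diamond-Blackfan anaemia, differed by 0.07 ± 0.04 in macrophages and -0.01 ± 0.08 in monocytes. Rps3, with a role in DNA repair, differed by 0.02 ± 0.04 in macrophages and -0.05 ± 0.08 in monocytes. Rps27a, made as a fusion with ubiquitin, differed by 0.06 ± 0.05 in macrophages, and Rpl13a, known in human monocytes as part of a translational silencing complex, by 0.09 ± 0.09.

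The widest monocyte differences among the members that did not pass belonged to genes with few reads. Rps10 had 34.8, 20.5, 52.1 and 32.5 normalised reads in KO monocytes, against 16.1, 24.4, 13.1 and 6.5 in WT monocytes, which overlap (0.67 ± 0.22, adjusted p = 0.124). In the authors' deposited table, turned to KO over WT, its monocyte log2 fold change was 1.25 with a standard error of 0.36 and an adjusted p of 0.011, and it was the only member called there beside Rps13 and Rps15a. Rpl3l had 62.0, 33.7, 34.7 and 21.9 in KO monocytes, against 72.9, 59.0, 76.1 and 76.3 in WT monocytes (-0.66 ± 0.20, adjusted p = 0.0956). Without KO monocyte replicate 6 it passed (-0.84, adjusted p = 0.0219), as it did with all 16 libraries in 1 fit (adjusted p = 0.032).

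Macrophages and monocytes differed in more members than the genotypes did, as they did in more of all genes, and few members were lower in macrophages. In KO mice 26 members were higher in macrophages and 4 lower, together 37.5% of 80, where 60.2% of all genes passed. In WT mice 29 were higher and 6 lower, together 43.75%, where 62.6% of all genes passed. By direction, 30.3% of all genes were higher and 29.9% lower in macrophages of KO mice, and 31% and 31.6% in those of WT mice. With all libraries the share of members higher in macrophages was thus near that of all genes, while the share lower was below it. The median member difference, macrophage minus monocyte, was 0.14 in KO mice and 0.09 in WT mice on the log2 scale, against -0.0044 and -0.011 for all genes. In both genotypes 20 members were higher and 4 were lower, 0 passed in opposite directions and 39 passed in neither. The shared calls were 80% of the KO calls and 68.6% of the WT calls. Without KO monocyte replicate 6, the KO count was 54 of 80 (50 higher and 4 lower).

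**Figure D5:**
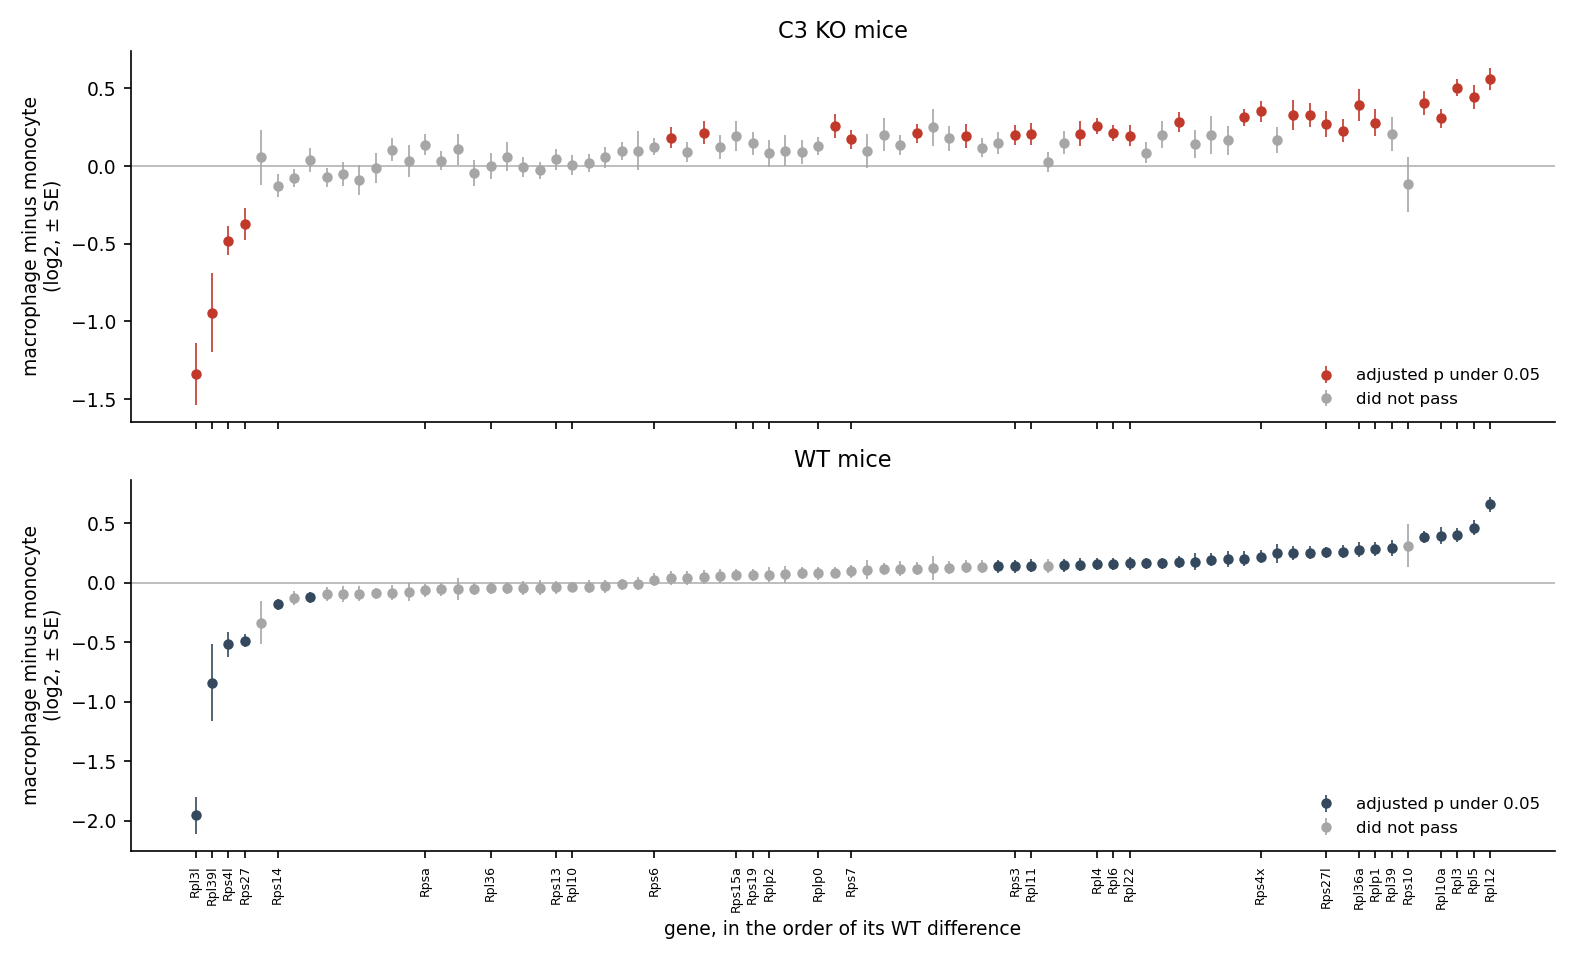
Macrophage minus monocyte difference (log2 ± SE) of 80 ribosomal protein genes in C3 KO mice (upper panel) and WT mice (lower panel), grey where the adjusted p was not under 0.05, n = 4 libraries per group, with names for a selection of genes. Rpl12 is highest in both genotypes, at 0.56 in KO mice and 0.66 in WT mice, and Rpl3l is lowest in both, at -1.34 and -1.95. Rpl3l has few reads in macrophages.

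Of the members by role, 13 of 42 large subunit genes were higher and 0 lower in macrophages of KO mice, and 18 were higher and 1 lower in those of WT mice, together 31.0% and 45.2%. Among 30 small subunit genes 11 were higher and 1 lower in KO mice, and 9 were higher and 2 lower in WT mice, together 40% and 36.7%. The shares called were below those of all genes in either direction together (60.2% in KO and 62.6% in WT). For the large subunit, 13 of 42 higher is near the 30.3% of all genes that were higher in KO mice. For the small subunit, 9 of 30 higher is near the 31% of all genes that were higher in WT mice. Of the 3 stalk genes Rplp1 was higher in both genotypes (0.28 ± 0.09 in KO, adjusted p = 0.0148, and 0.29 ± 0.06 in WT, adjusted p = 0.00122), and Rplp0 and Rplp2 did not pass in either.

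Rpl12, the large subunit protein at the base of the stalk, had the highest difference. It had 1308, 1276, 1324 and 1338 normalised reads in KO macrophages, against 906, 635, 786 and 734 in KO monocytes (0.56 ± 0.07, adjusted p = 2.49e-05). WT macrophages had 1243, 1224, 1224 and 1402, against 604, 598, 741 and 740.2 in WT monocytes (0.66 ± 0.06, adjusted p = 4.55e-06). All macrophage libraries lay above all monocyte libraries in both genotypes.

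Rpl5, which carries 5S ribosomal RNA into the large subunit together with Rpl11, had 1365 to 1588 normalised reads in KO macrophages, against 757 to 1122 in KO monocytes (0.45 ± 0.08), and 1254 to 1394 in WT macrophages, against 752 to 1011 in WT monocytes (0.46 ± 0.06). Rpl11 was higher by 0.21 ± 0.07 in KO mice (adjusted p = 0.0262) and 0.14 ± 0.05 in WT mice (adjusted p = 0.0362). Both Rpl11 calls were lost with no filter on low values (limma adjusted p of 0.062 in KO and 0.0868 in WT mice). They were also lost without some single libraries (up to 0.0761 in KO and 0.0988 in WT mice). Rpl36a, of the large subunit, was higher by 0.39 ± 0.10 in KO mice and 0.28 ± 0.06 in WT mice, and Rpl10a by 0.31 ± 0.06 and 0.39 ± 0.07. Rps14, at the platform of the small subunit, was lower in macrophages of WT mice (-0.18 ± 0.05, adjusted p = 0.00663). It did not pass in KO mice, and its KO effect was not shown to differ between cell types (adjusted p = 0.875).

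Rps27 and its paralog Rps27l, known as a p53 target in human cells, moved in opposite directions. Rps27 (chr3:90212522-90213651) had 1116, 1125, 1156 and 1205 normalised reads in KO macrophages, against 2253, 1305, 1718 and 1447 in KO monocytes (-0.37 ± 0.10, adjusted p = 0.00823). WT macrophages had 1044, 981, 1045 and 1078, against 1655, 1454, 1788 and 1783 in WT monocytes (-0.49 ± 0.05, adjusted p = 1.32e-05), so that macrophages lay below monocytes without overlap in both genotypes. Rps27l (chr9:66946086-66949516) had 2198, 2329, 2336 and 2825 in KO macrophages, against 2125, 1479.9, 1909 and 1964 in KO monocytes (0.27 ± 0.08, adjusted p = 0.0122). WT macrophages had 2300.1 to 2478, against 1715 to 2029 in WT monocytes (0.26 ± 0.05, adjusted p = 0.000461).

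Rpl3, which reaches towards the peptidyl transferase centre, and its paralog Rpl3l also moved in opposite directions. Rpl3 had 5881 to 6452 normalised reads in KO macrophages, against 3589 to 4344 in KO monocytes (0.50 ± 0.06, adjusted p = 7.09e-06), and 5378 to 5736 in WT macrophages, against 3296 to 4262 in WT monocytes (0.40 ± 0.06, adjusted p = 0.000107). Rpl3l had 6.4, 6.6, 6.4 and 3.5 in KO macrophages, against 62.0, 33.7, 34.7 and 21.9 in KO monocytes (-1.34 ± 0.20). WT macrophages had 7.6, 10.1, 3.7 and 4.2, against 72.9, 59.0, 76.1 and 76.3 in WT monocytes (-1.95 ± 0.16). The cell types did not overlap in either genotype, although Rpl3l levels were low throughout. Its macrophage reads are few, and its monocyte libraries are enough to pass the filter on low values. Its difference between cell types is therefore given as values with no test. The counts of lower members include it in both genotypes. The log2 differences of Rpl3l are drawn towards 0 by the deposited scale, so they are smaller than the ratios of these reads.

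Rps4x was higher in macrophages by 0.35 ± 0.07 in KO mice (adjusted p = 0.000564) and 0.22 ± 0.05 in WT mice (adjusted p = 0.00337). Rps4l, which the GENCODE annotation lists as a transcribed processed pseudogene, had 151 to 192 normalised reads in KO macrophages, against 245 to 315 in KO monocytes (-0.48 ± 0.09), and 156 to 206 in WT macrophages, against 261 to 396 in WT monocytes (-0.52 ± 0.10). Rpl39, which lines the exit tunnel, was higher in WT macrophages (0.29 ± 0.07, adjusted p = 0.00265). In KO mice its difference was 0.21 ± 0.11 (adjusted p = 0.123), and the KO effect was not shown to differ between cell types (adjusted p = 0.87). Rpl39l had 6.4 to 46.1 in KO macrophages, against 53.0 to 88.3 in KO monocytes (-0.94 ± 0.25, adjusted p = 0.00709), and 13.5 to 47.5 in WT macrophages, against 30.8 to 126 in WT monocytes, where the groups overlap (-0.84 ± 0.32, adjusted p = 0.0449, and 0.0606 with TMM scaling). The WT call of Rpl39l, counted among the 4 lower in both genotypes, was also lost with no filter on low values (limma adjusted p = 0.075). It was lost too with voom on the recovered reads (0.0585) and without some single libraries (up to 0.118). Rpl22 was higher by 0.20 ± 0.07 in KO mice and 0.16 ± 0.06 in WT mice, and Rpl10, with 0.01 ± 0.06 and -0.03 ± 0.04, did not pass. Both Rpl22 calls were lost with no filter on low values (limma adjusted p of 0.0641 in KO and 0.0645 in WT mice). They were also lost without some single libraries (up to 0.0679 in KO and 0.0755 in WT mice).

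Members on both sides carried the pyrimidine tract at their start. The letter C followed by 4 letters that are each C or T, searched on the transcribed strand within 5 bases of the RefSeq start (GRCm38.p6), was found at 43.1% of 72 starts of 60 members, and at 18.3% of 32851 starts of all genes. At the start itself the shares were 19.4% and 2.51%. Windows of 15 bases on each side of the start are shown for 6 members named above, with the tract in capitals; Rps27l has 2 starts in RefSeq.
Rps15a, chr7:118116133-118116162, minus strand: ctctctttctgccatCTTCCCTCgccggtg
Rps27, chr3:90213634-90213663, minus strand: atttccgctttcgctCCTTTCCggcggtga
Rps27l, chr9:66946071-66946100, plus strand: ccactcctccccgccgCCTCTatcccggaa
Rps27l, chr9:66946398-66946427, plus strand: accatgggcttcagggtcactaacgggcct
Rpl12, chr2:32961697-32961726, plus strand: ggcggagcaggatccgtCTTTTCggctttc
Rps13, chr7:116334176-116334205, minus strand: gagagcaaacgtcggtgagtggcgtcactt
Rpl5, chr5:107900513-107900542, plus strand: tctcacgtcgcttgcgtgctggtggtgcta
Rps27 and Rpl12, which moved in opposite directions between the cell types, both had the tract, as did 1 of the Rps27l starts, and these letters were not found in the other Rps27l window or in those of Rps13 and Rpl5. A match is a description of the letters only.

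The lists of other genes of ribosome synthesis and translation are set against the shares of all genes called between the cell types, 60.2% in KO mice (30.3% higher and 29.9% lower in macrophages) and 62.6% in WT mice (31% and 31.6%). Of 47 ribosome assembly and nucleolar genes 32 were higher and 5 lower in macrophages of KO mice, and 36 higher and 4 lower in those of WT mice, together 78.7% and 85.1%, with median differences of 0.29 and 0.35 on the log2 scale. Nop56, a box C/D snoRNP core protein, differed by 0.70 ± 0.05 in KO mice and 0.86 ± 0.06 in WT mice, and Ncl, nucleolin, by 0.68 ± 0.05 and 0.72 ± 0.05. Of 75 mitochondrial ribosomal protein genes 37 were higher and 8 lower in KO mice, and 46 higher and 11 lower in WT mice, together 60% and 76% (medians 0.18 and 0.22). Mrpl33 was among the lower ones, at -0.79 ± 0.06 in KO mice and -0.68 ± 0.05 in WT mice. Of 15 elongation factor and other tract-bearing genes 8 were higher and 1 lower in KO mice, and 8 higher and 3 lower in WT mice, together 60% and 73.3%. Eef1g, an elongation factor subunit, was higher by 0.53 ± 0.05 in KO mice and 0.56 ± 0.07 in WT mice, and Tpt1 was lower, at -0.46 ± 0.06 and -0.44 ± 0.04.

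Of 49 initiation factor genes 18 were higher and 11 lower in macrophages of KO mice, and 21 higher and 11 lower in those of WT mice, together 59.2% and 65.3%, near the shares of all genes. This list was taken by symbols of Eif and a number, so it includes Eif4ebp1 and Eif6. Eif4ebp1 is also counted with the mTORC1 and Myc genes, and Eif6 with the assembly genes. Of 20 RNA polymerase I genes 5 were higher and 4 lower in KO mice, and 6 higher and 3 lower in WT mice, together 45% in either genotype. Of 27 mTORC1 and Myc genes 9 were higher and 6 lower in KO mice, and 9 higher and 8 lower in WT mice, together 55.6% and 63.0%. All 20 cell cycle genes were higher in macrophages of both genotypes, Mcm4 by 1.23 ± 0.07 in KO mice and 0.83 ± 0.09 in WT mice. Of 6 tested ribosomal protein genes outside the naming rule 2 were higher and 1 lower in either genotype, together 50%. Rack1, a scaffold on the small subunit, was higher by 0.31 ± 0.06 in KO mice and 0.30 ± 0.05 in WT mice, and Fau, the precursor of a small subunit protein, was lower, at -0.29 ± 0.07 and -0.38 ± 0.05.

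Between genotypes 2 of 47 assembly genes, 1 of 49 initiation factor genes, 3 of 27 mTORC1 and Myc genes and 2 of 20 cell cycle genes passed in macrophages, where 5.4% of all genes passed. In monocytes 1, 0, 1 and 2 passed in these lists, where 3.24% of all genes passed; these counts are too small to set the lists apart from all genes. Of the 47 assembly genes Nolc1 (0.19 ± 0.04, adjusted p = 0.0241) and Rrp12 (0.25 ± 0.06, adjusted p = 0.0219) were higher in KO macrophages, and Nop56 was higher in KO monocytes (0.29 ± 0.06, adjusted p = 0.0265). Eif5 was the only initiation factor that passed (0.25 ± 0.05 in macrophages, adjusted p = 0.00835). The mitochondrial ribosomal protein, elongation factor, RNA polymerase I and outside-rule lists had no gene past the limma threshold in either cell type. Of 27 mTORC1 and Myc genes, Mxd1, a Myc antagonist, was higher in KO macrophages (0.34 ± 0.09, adjusted p = 0.0485). Sesn1, an inhibitor of mTORC1, and Akt1s1, a subunit that restrains it, were lower there (-0.36 ± 0.07 and -0.25 ± 0.06), and Ddit4, another inhibitor, was lower in KO monocytes (-0.57 ± 0.13, adjusted p = 0.0337). Of 20 cell cycle genes Mcm3 and Mcm4, of the replicative helicase, were higher in KO macrophages (0.28 ± 0.07 and 0.33 ± 0.07), and the mitotic genes Bub1b and Nusap1 were lower in KO monocytes (-0.48 ± 0.10 and -0.86 ± 0.17).

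Member levels per length spanned a wide range. Per kb of transcript, normalised reads averaged over the 16 libraries ran from 12.5 for Rpl24 to 9145 for Rps9, with a median of 2107, over the length of 1 transcript per member. Over the length of all exons of a gene Rps9 stood at 2723 and Rpl24 at 8.24, and Rplp0 was highest at 5463, so the order of the top levels depends on the length used. In the coding sequences of the members, with the whole transcript for Rpl32l and Rps4l, which have none annotated, a median of 89.5% of 50-base windows occur in another annotated gene, and 65 members have at least 50% of such windows. Across members the share of such windows and the reads per kb had a Spearman rho of -0.21, given as a description. Exons of Rpl24 overlap Gm28037 and those of Rps10 overlap a read-through gene with Nudt3, both on the same strand. The library kit does not mark strand, so reads of genes overlapping on opposite strands, such as Rpl23a and Tlcd1, cannot be told apart either. The part of shared sequence in the low levels was not tested.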

How the data were processed

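RNA of 16 sorted samples was made into SMART-Seq v4 libraries from 5 ng each, per the labels' protocols. The submitters' processing notes name bcl2fastq 2.19.0.316, STAR 2.7.2b, DESeq2 (version not given) and GRCm38. The authors deposited a matrix of regularised log2 values for 30819 genes. Their deposited tables give base means (a signal over all libraries), log2 fold changes of WT over KO, standard errors and Wald statistics (scores) and p-values. No library or column was left out.

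Reads were recovered by inverting the log2 values: 81.5% of values came within 0.05 of a whole number (20443 genes, base mean 1 or more). For genes with a base mean of 1000 or more, where most members lie, 41.5% did. Those values were off a whole number by a median of 0.0025% and at most 4.98%. Genes with a linear value of at least 10 in at least 4 libraries (13134) were fitted on the log2 values with limma 3.58.1 (trend and robust, R 4.3.3, statmod 1.5.0) within each pair of groups, and all 16 libraries served the difference of KO effects. P-values were adjusted over all genes by the Benjamini-Hochberg method and called under 0.05. The limma fit and the inversion were tested on simulated data. Normalised reads are recovered reads divided by size factors. Sequences came from GENCODE M21 and RefSeq, read with Python 3.11.15.

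Titles number the mice, so a number marks macrophages and monocytes of the same mouse. Deviations of libraries of the same mouse correlated at 0.052 to 0.21 in KO and 0.031 to 0.42 in WT mice, and those of different mice at -0.23 to 0.14 and -0.32 to 0.19. Libraries of a group differed by a chi-square per gene of at least 10.3, so no library was a copy of another.

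Named members were up to 6 called genes with the largest rise and fall per comparison, paralog pairs, stalk genes, Rpsa, members with roles outside the ribosome and those near C3, and for each other list up to 3 called genes of smallest p. Some members this rule names are not reported here. Members and lists were chosen with earlier results of these data known.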

Additional observations from a re-analysis of the deposited data

Results flagged for a closer look

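In 5 of 124 groups of 4 libraries examined, 1 library stood apart from the other 3, where chance gives about 1 group in 20. Rps13 had 1432 normalised reads in KO monocyte replicate 6, against 1104 to 1148 in the other KO monocytes. Rps4x had 2191 in the same library, against 1685 to 1764, and Rpsa had 3069, against 2292 to 2381. Rpl12 had 1402 in WT macrophage replicate 4, against 1224 to 1243 in the other WT macrophages. Rpl3l had 3.55 in KO macrophage replicate 9, against 6.35 to 6.55 in the other KO macrophages.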

How the results depend on the processing

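No named member that was called changed direction under the alternatives run. The median member difference between genotypes in monocytes, 0.0024, did: it was -0.07 without KO monocyte replicate 6, -0.0084 without KO monocyte replicate 8, and -0.016 and -0.038 without WT monocyte replicates 1 and 2. With TMM scaling this median was 0.026, that in macrophages 0.032 (0.054 without it), that between WT cell types 0.14 (0.09), and that of the difference of KO effects 0.0097 (0.055), and the balance of higher and lower calls turned over in 2 comparisons, as given next. Rps13 and Rps15a stayed called under 15 alternatives each (log2 difference -0.56 to -0.37 and -0.61 to -0.41 in macrophages, and -0.66 to -0.44 and -0.76 to -0.50 in monocytes), other than with pseudogene reads added. With pseudogene reads added, 1 member was called in macrophages and 0 in monocytes, the median member difference between WT cell types was 0.16, and 48 genes differed in their KO effect. Voom on recovered reads gave 0.17 and 48. For monocytes KO against WT, all 16 libraries in 1 fit called 4 members (1 higher, 3 lower) and 981 genes, and the authors' deposited table called 1329 genes. For monocytes KO against WT, TMM scaling gave 228 genes higher and 206 lower (180 and 246 without it), and 30 and 47 for the difference of KO effects (47 and 34 without it). With the mouse as a replicate block, 251 genes differed in their KO effect (81 without it) and 0 members did. In these block fits 30 members were called between KO cell types and 37 between WT cell types. The shares of all genes called between cell types with the block are not reported here, so nothing is read from these member counts. Leaving out 1 library gave 2 to 3 members called in macrophages and in monocytes, 23 to 54 between KO cell types (54 without KO monocyte replicate 6), 25 to 40 between WT cell types, and 0 to 0 for the difference of KO effects. Genes called ran from 473 to 680 in macrophages, 256 to 473 in monocytes (256, 258 and 272 without KO monocyte replicates 8 and 9 and WT monocyte replicate 3), 7259 to 7656 and 7502 to 7988 between KO and between WT cell types, and 48 to 125 for the difference of KO effects (48 without WT macrophage replicate 3, 125 without KO monocyte replicate 7). Medians ran from 0.03 to 0.07, -0.07 to 0.05, 0.10 to 0.21, 0.06 to 0.12 and 0.01 to 0.13 in the same order. The cause of these changes was not tested. Of the values of named members, 1965 counted as unchanged, 52 lost their call, 17 gained one and 15 moved. Unchanged means a call that was kept or, for a gene not called in the main fit, a shift of less than its SD between mice. A gene not called that shifted further counted as moved. With 4 mice per group, low members such as Rpl3l and Rps10 rest on few reads.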
